A study of Mus musculus with 30 samples.

Results

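The parental cultures of a mouse B-cell lymphoma line fell into 2 sets when they were grouped by culture number: cultures numbered 1 and 2, with 8 arrays, and cultures numbered 3, 4 and 5, with 15 arrays. These 23 parental arrays were chosen from 30 in the series, and the number of each culture was read from the description field of its label. A number names a biological replicate, with 1 array for each number and hour. The grouping was proposed after expression values of these same arrays had been seen. The difference between the sets is therefore a description and carries no p-value. Cells carried the Eµ-Myc transgene on a Cdkn2a-/- C57BL/6J background, came from a single mouse lymphoma and were grown over irradiated Cdkn2a-/- mouse embryonic fibroblasts. Every set holds untreated cultures at 0 h and cultures exposed to 750 nM mafosfamide for 6, 12, 24 or 48 h. Numbers 1 and 2 gave 2, 1, 1, 2 and 2 arrays at these hours, and numbers 3 to 5 gave 3 arrays at each hour. Culture number 1 was not among the arrays at 6 and 12 h, and at these hours the number in the title of a label differs from that in its description. The cultures are of 1 line, so p-values measure the spread between its cultures. The other 7 arrays came from 4 resistant lines (R100, R500, R1000 and R4000, each named for its selection dose in nM) that were grown out of the parental line by dose escalation. Of these, 4 arrays were untreated and 3 (R500, R1000 and R4000) had 24 h of 750 nM mafosfamide, with 1 array for each line and hour.

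The Eµ-Myc transgene drives Myc from the immunoglobulin heavy chain enhancer, and loss of Cdkn2a removes Arf, an activator of p53, so that lymphomas of the B lineage arise. Mafosfamide is an analogue of cyclophosphamide that releases an alkylating agent without activation in the liver. A B lymphoma usually keeps the immunoglobulin gene segments that its founding cell joined, and those segments serve as a tag of descent. Immature B cells that still express the Rag recombinase can rearrange the light chain again.

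The cultures of both sets were B-lineage cells by their markers. Cd79a, the signalling chain of the B-cell receptor, ran from 13.24 to 13.62 in numbers 1 and 2 and from 13.23 to 13.49 in numbers 3 to 5 on the log2 scale. Pax5 and Ebf1, the transcription factors of B-cell identity, had medians of 11.72 and 12.27 in numbers 1 and 2 and of 11.80 and 12.35 in numbers 3 to 5. Myc had medians of 13.11 and 13.07. The T-cell receptor chain Cd3e did not pass 7.44 on any parental array. Fibroblast transcripts were present, and the mean of 40 fibroblast genes ran from 7.77 to 9.58 in numbers 1 and 2 and from 7.58 to 8.82 in numbers 3 to 5. Median signal per array lay between 7.28 and 7.44. The 0 h array of number 5 had the narrowest spread of values (interquartile range 3.07, where all other arrays in the series had 3.34 to 3.64). The 5 arrays of number 2 had medians of 7.35 to 7.39, above the 7.28 to 7.32 of number 1. In whole cultures, fewer cells of a type and less RNA per cell cannot be told apart.

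The genes that set the cultures apart most were the B-cell surface protein gene Ms4a1 on one side and immunoglobulin kappa light chain segments on the other. With the hour of mafosfamide as a covariate, 47 of 19105 autosomal genes differed by at least 2-fold with no overlap between the hour-adjusted arrays of the sets, which is 0.246% of the genes. Of these, 21 genes (0.11%) were higher in numbers 1 and 2 and 26 genes (0.136%) were lower, and 1 of the 47 was a predicted gene model. Without the requirement of no overlap, 57 genes passed the fold limit, and without the fold limit 598 genes (3.13%) did not overlap, 358 higher and 240 lower in numbers 1 and 2. Most genes differed little, and the quartiles of the difference over autosomal genes were -0.07 and 0.10 on the log2 scale. The genes nearest to the limit on its inner side were Gstk1 at 1.04, Akr1e1 at -1.04 and Mei4 at 1.04, and those nearest on the outer side were H2-DMa at 0.99, Fam169b at 0.99 and Daam1 at -0.99. Since these values chose the sets, nothing is read from the counts.

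Ms4a1 encodes CD20, a surface protein of B cells that appears as they mature. Its level was 11.33 at the lowest, 12.02 at the median and 12.41 at the highest of the 8 arrays of numbers 1 and 2. In the 15 arrays of numbers 3 to 5 these values were 6.88, 8.59 and 10.04. No array of one set reached the other, and the hour-adjusted difference was 3.37 (SE 0.29). The gap was narrower at 48 h, where the 3 arrays of numbers 3 to 5 stood at 9.65 to 10.04 against 7.17 to 8.53 at 0 h.

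The next genes by size include B3gnt5 and several with known roles in lymphocytes. B3gnt5, which makes the core of a family of glycosphingolipids, ran from 8.16 through a median of 8.64 to 9.09 in numbers 1 and 2 and from 5.80 through 6.32 to 7.21 in numbers 3 to 5, a difference of 2.17 (SE 0.13). Ly6d, a surface protein that marks commitment of lymphoid progenitors to the B lineage, ran from 10.77 through 11.28 to 11.52 and from 8.46 through 9.48 to 10.51, a difference of 1.73 (SE 0.14). Both genes kept the arrays of the sets apart at every hour. Ctsh, a lysosomal cathepsin, differed by 1.44 (SE 0.15), and Rasgrp1, which activates Ras downstream of antigen receptors, by 1.32 (SE 0.21). For Rasgrp1 the deposited values of the sets overlapped, since the highest array of numbers 3 to 5 stood at 11.34 and the lowest of numbers 1 and 2 at 11.26, and they parted only after the hour was removed. Btla, an inhibitory receptor of lymphocytes, differed by 1.14 (SE 0.14) and Ubash3a, a phosphatase-like regulator of antigen receptor signalling, by 1.16 (SE 0.06).

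Other genes made up the rest of the higher side. Fabp5, a carrier of fatty acids, ran from 8.64 through 9.16 to 9.57 in numbers 1 and 2 and from 6.99 through 7.64 to 8.30 in numbers 3 to 5, a difference of 1.42 (SE 0.12), and its other probe set gave 1.29. Trim35, a ubiquitin ligase of the TRIM family, differed by 1.44 (SE 0.09) and did not pass 9.47 in numbers 3 to 5, where the lowest array of numbers 1 and 2 stood at 10.33. Rassf6 differed by 1.44 (SE 0.13), Coro2a by 1.30 (SE 0.10), the proton-sensing receptor gene Gpr65 by 1.27 (SE 0.07) and Hmces, which shields abasic sites in DNA, by 1.22 (SE 0.12). Arhgap29 at 1.21 and Bcar3 at 1.17 lie near each other on chromosome 3. The remaining genes, Mfsd10, Slc25a13, Olfml2b, Gstk1, Mei4 and 2210016F16Rik, differed by 1.04 to 1.15.

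**Figure D1:**
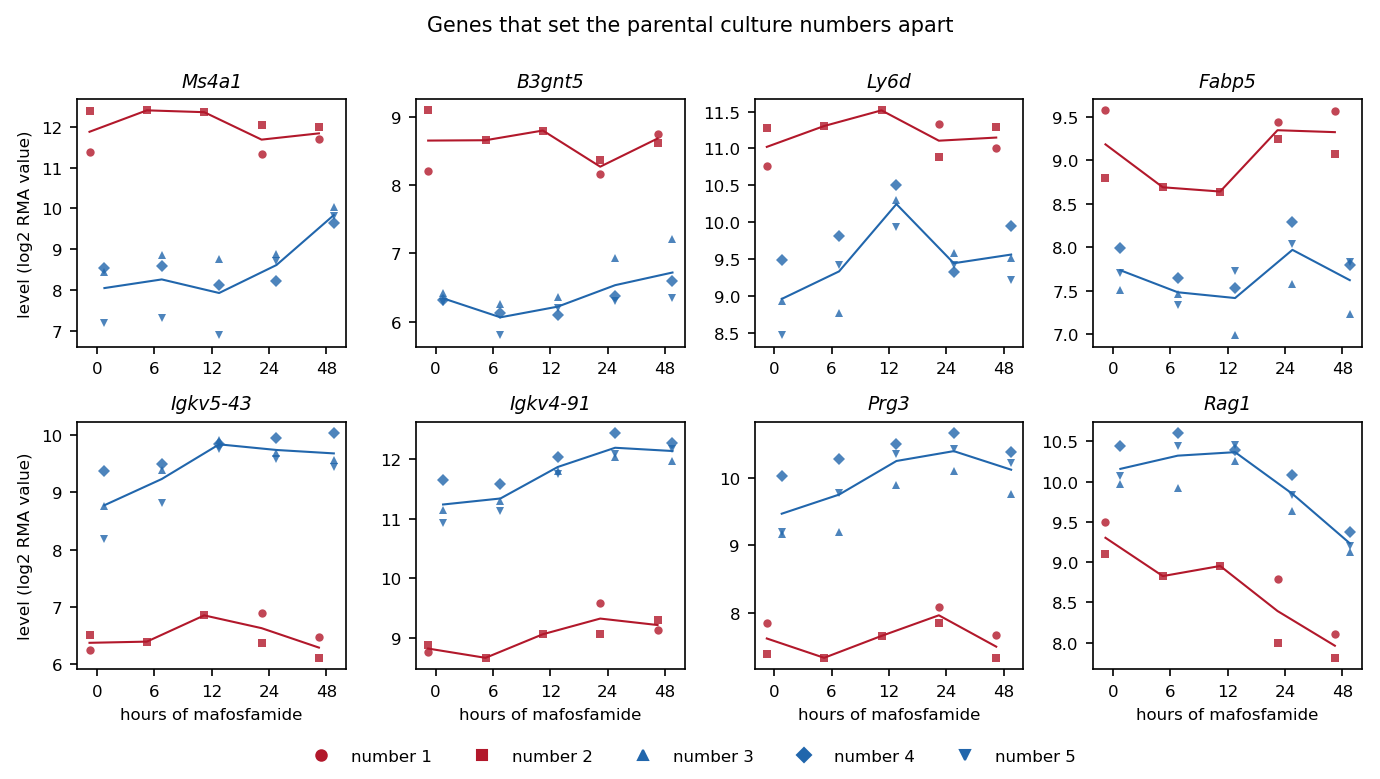
Level of 8 genes (log2 RMA value, vertical axes, each panel on its own scale) on the 23 parental arrays by hours of mafosfamide, with numbers 1 and 2 in red, numbers 3 to 5 in blue, a symbol for each culture number and lines through the mean of each set. Ms4a1, B3gnt5, Ly6d and Fabp5 lie higher in numbers 1 and 2 at each hour, and Igkv5-43, Igkv4-91, Prg3 and Rag1 lie lower.

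Kappa light chain segments led the lower side. Igkv5-43 ran from 6.11 through a median of 6.43 to 6.90 in numbers 1 and 2 and from 8.20 through 9.57 to 10.04 in numbers 3 to 5, a difference of -2.95 (SE 0.14). Igkv4-91 ran from 8.66 through 9.06 to 9.58 and from 10.92 through 11.80 to 12.44, a difference of -2.74 (SE 0.10). Igkv4-55 ran from 6.76 through 7.0 to 7.65 and from 7.97 through 8.86 to 8.99, a difference of -1.64 (SE 0.10). In each of these 3 segments the lowest array of numbers 3 to 5 stood above the highest of numbers 1 and 2. Variable segments of one family are similar in sequence, so probes of one segment may also take up the transcript of another. By their names Igkv4-91 and Igkv4-55 are of one family and Igkv5-43 is of another. The 3 values are not separate counts of 3 rearrangements.

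The brightest kappa segment was bright in both sets. Igkv19-93 ran from 13.94 to 14.19 in numbers 1 and 2 and from 13.72 to 14.07 in numbers 3 to 5, a difference of 0.21. Its deposited values overlapped and its hour-adjusted values did not. Igkv10-96 had a difference of -1.04 and Igkv8-30 of -0.64, and the arrays of the sets overlapped in both. Igkv9-120 went the other way, with 7.17 to 7.93 in numbers 1 and 2, 6.33 to 7.12 in numbers 3 to 5 and a difference of 0.88 without overlap. Among constant regions of the heavy chain, Ighm had a difference of -0.004, Igha of -0.01 and Ighg3 of -0.05.

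Rag1, a subunit of the recombinase that joins immunoglobulin segments, was also lower in numbers 1 and 2. Its level ran from 7.81 through a median of 8.81 to 9.50 in numbers 1 and 2 and from 9.13 through 10.07 to 10.61 in numbers 3 to 5, a difference of -1.27 (SE 0.11). The deposited values overlapped, and the sets parted once the hour was removed. Igll1 and Vpreb1, whose surrogate light chains pair with the heavy chain in pre-B cells, had differences of -0.89 and -0.45 with overlap. Il2ra, the alpha chain of the interleukin-2 receptor, which late pre-B cells carry, ran from 10.27 through 10.46 to 10.88 and from 10.98 through 11.76 to 12.06, a difference of -1.10 (SE 0.09). Of 20 early B genes in a list, 6 were above 0 and 14 below, with Rag1 alone past both limits. Of 24 mature B genes, 14 were above 0, and Ms4a1 alone passed both limits. Over all autosomal genes 53.4% were above 0 and 0.246% passed both limits. Fcrl1, an Fc receptor-like protein of B cells, had a difference of 0.94 without overlap.

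Several genes lower in numbers 1 and 2 are known from other blood cells. Prg3, a granule protein of eosinophils, ran from 7.33 through 7.66 to 8.08 in numbers 1 and 2 and from 9.17 through 10.11 to 10.68 in numbers 3 to 5, a difference of -2.37 (SE 0.15). Mrc1, the mannose receptor of macrophages, differed by -1.34 (SE 0.11), Lcp2, an adaptor of T-cell receptor signalling, by -1.36 (SE 0.12), and Cd244a, a receptor of natural killer cells, by -1.33 (SE 0.08). Sh2d1b1, whose product binds the tail of receptors of the Cd244a family, differed by -1.64 (SE 0.14). Aim2, a sensor of DNA in the cytoplasm, ran from 8.65 through 9.05 to 9.40 and from 9.92 through 10.36 to 10.49, a difference of -1.30 (SE 0.08). A list of 28 myeloid genes had 9 members above 0 and a median of -0.08, with Mrc1, Fcgr3 at -0.89 and Csf1r at -0.68 without overlap. In a list of 27 T and natural killer cell genes 10 were above 0 and the median was -0.03, beside 0.01 over all autosomal genes. Of the myeloid markers, Lyz2, Csf1r, Itgam and Cd68 had medians of 5.71, 7.06, 7.95 and 9.22 in numbers 1 and 2. In numbers 3 to 5 these were 5.95, 7.66, 8.13 and 9.08. The T-cell markers Cd3d and Cd3e had medians of 5.56 and 7.04 in numbers 1 and 2 and of 5.54 and 6.98 in numbers 3 to 5. The part of other blood cells in these values was not tested.

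The remaining genes on the lower side had no common role. Lrrc4c, a neuronal adhesion protein, ran from 5.17 through 5.40 to 5.76 in numbers 1 and 2 and from 7.02 through 7.43 to 8.18 in numbers 3 to 5, a difference of -2.12 (SE 0.12). The protease inhibitor genes Spinkl and Spink11 both differed by about the same amount, -1.64 (SE 0.11) and -1.63 (SE 0.11). Capsl differed by -1.55, Gphn, which anchors inhibitory receptors at synapses, by -1.48, and the orphan receptor gene Gpr171 by -1.38. P2rx3, Raet1d, Iqgap2, Poglut2, Bbs5, Airn, Emb, Aldh3b1 and Akr1e1 lay between -1.31 and -1.04.

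Some of the 47 genes are neighbours on their chromosomes. All 47 could be placed along the RefSeq gene table of assembly GRCm38.p6, which is not the mm9 build of the deposited data and was used for gene order only. There were 7 pairs with at most 5 measured genes between them, and the sets differed in the same direction in 6 of the 7. How many such pairs other sets of 47 genes hold was not counted, and pairs of kappa segments may share probe signal. Spinkl and Spink11 on chromosome 18, Prg3 and P2rx3 on chromosome 2 and Igkv4-55 and Igkv5-43 on chromosome 6 had no measured gene between them. The other probe set of P2rx3 gave -0.54, short of 2-fold. Lrrc4c and Rag1 on chromosome 2 had 2 measured genes between them. Sh2d1b1 and Olfml2b on chromosome 1 were the pair of opposite direction, at -1.64 and 1.05.

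The direction of the difference held across the time course. At each of the 5 hours all 47 genes kept the sign of the hour-adjusted difference, and 36, 42, 44, 41 and 38 of them were past 2-fold at 0, 6, 12, 24 and 48 h, where 0.707%, 0.639%, 0.633%, 1.2% and 0.947% of all autosomal genes were. Since the choice of genes used every hour, this direction is no independent sign. Over all 19105 autosomal genes, which are not independent replicates, the set differences at 24 and 48 h correlated at r = 0.81 and those at 6 and 12 h at 0.77. Those at 0 and 24 h correlated at 0.17 and those at 0 and 48 h at 0.21. The 6 and 12 h arrays share culture number 2 as the sole array of their set.

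**Figure D2:**
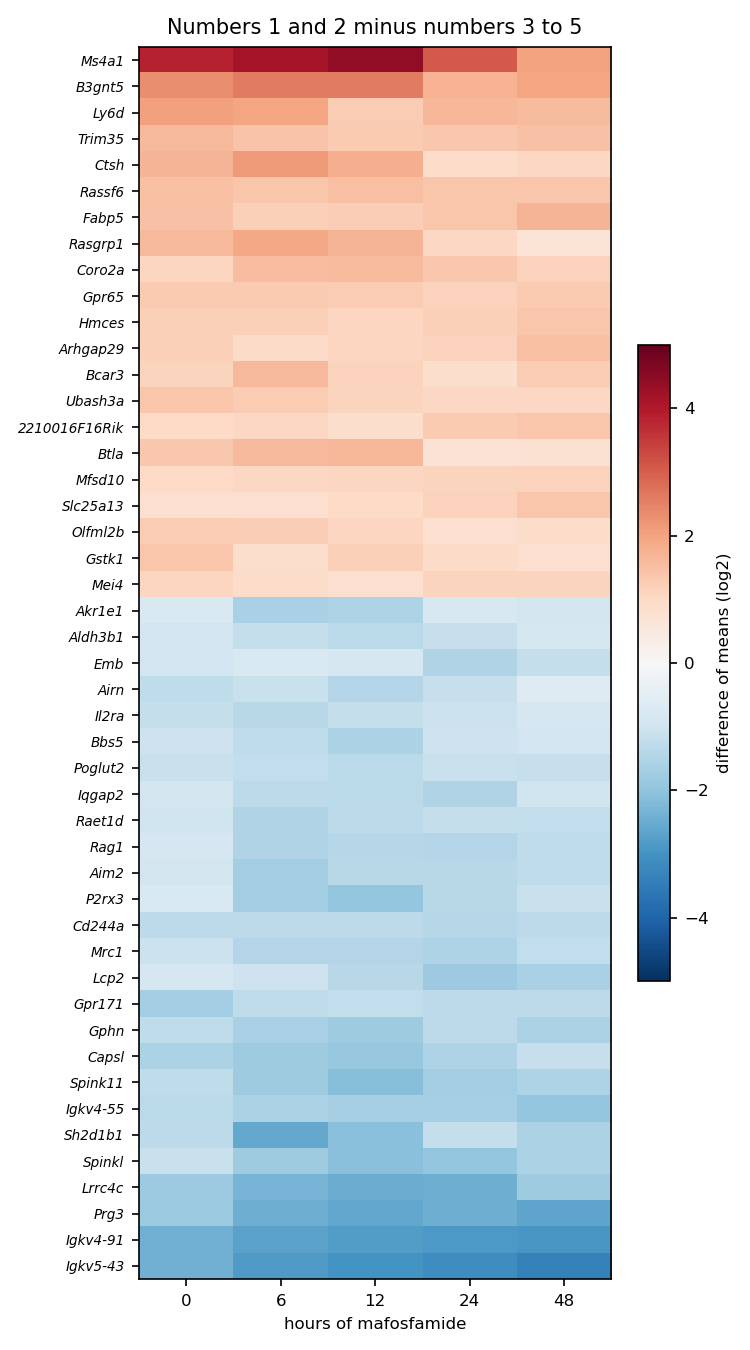
Difference of the means of numbers 1 and 2 and numbers 3 to 5 (log2, colour scale) for the 47 genes at each hour of mafosfamide, ordered from Ms4a1 to Igkv5-43. Each row keeps 1 colour from 0 to 48 h, with the difference of Ms4a1 smallest at 48 h.

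Pairs of single culture numbers were compared at 0, 24 and 48 h, the hours that all 5 numbers had. These counts come from the values behind the grouping and are no support for it. Between numbers 1 and 2, 8 autosomal genes differed by at least 2-fold in the mean of these hours, between 3 and 5 there were 4, and between 4 and 5 there were 11. Pairs that crossed the sets differed in 69 to 166 genes. Numbers 3 and 4 were the exception inside a set, with 76 genes apart, 75 of them higher in number 4, and 12 of the 76 belonged to the fibroblast list of 40 genes. Number 3 was also farthest from numbers 1 and 2, with 157 and 166 genes, of which 16 and 15 were fibroblast genes. Number 4 was nearest, with 69 and 72 genes and 0 fibroblast genes, and 39 and 41 of these were among the 47. The mean of the fibroblast list in number 3 was 0.91 below number 1 and 0.82 below number 2 over these hours, and its part in the counts was not tested.

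**Figure D3:**
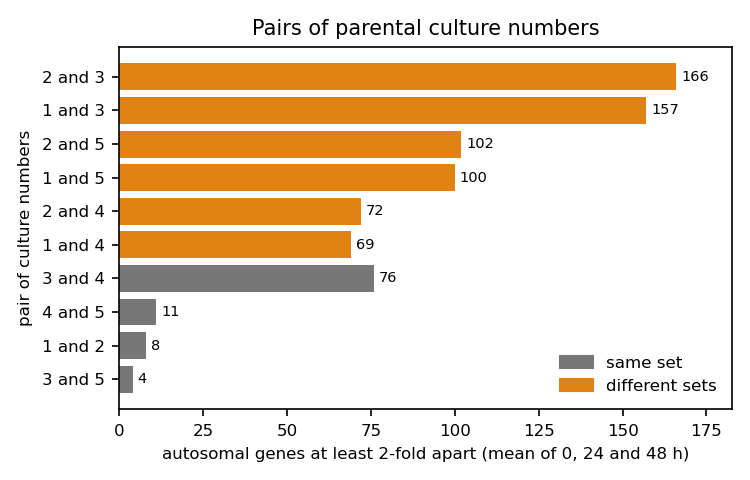
Number of autosomal genes at least 2-fold apart in the mean of 0, 24 and 48 h (horizontal axis, from 0) for each pair of parental culture numbers, with pairs inside a set in grey and pairs across sets in orange. Pairs across sets had 69 to 166 genes, and pairs inside a set had 4, 8, 11 and 76.

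Gene groups outside the B-cell list shifted by small amounts. Among 9 genes of MHC class II presentation, 6 were higher in numbers 1 and 2, the median difference was 0.46 beside 0.01 over all autosomal genes, and 4 did not overlap where 3.13% of all genes did not. H2-DMa, which helps load peptide, ran from 10.20 through 10.40 to 10.58 in numbers 1 and 2 and from 8.72 through 9.34 to 10.17 in numbers 3 to 5. Cd74, the invariant chain, had a difference of 0.63 and H2-Eb1 of 0.55. Among 51 ribosomal protein genes, 9 were above 0 and 7 did not overlap, all 7 lower in numbers 1 and 2, with Rps29 at -0.40 and Rpl21 at -0.38. Probe sets not used here did not all go this way, and they lay between -0.27 and 0.16 for Rps29 and between -0.79 and 0.04 for Rpl21. Among 24 B-cell transcription factor genes 2 did not overlap, Irf4 at -0.51 and Tcf12 at -0.20. Bcl11a, at 11.48 to 11.98 and 9.88 to 11.71, had a difference of 1.02 with overlap, as did Lmo2 at 0.68.

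The resistant lines, which the grouping did not use, were placed between the sets gene by gene. Each resistant array was compared with the mean of each set at its own hour. Of the 47 genes, R100, R500, R1000 and R4000 without drug were nearer to numbers 1 and 2 in 28, 37, 31 and 43 genes. These are 59.6%, 78.7%, 66% and 91.5%, beside 41.3%, 54.6%, 53.6% and 66.4% of all autosomal genes. After 24 h of drug, R500, R1000 and R4000 were nearer to numbers 1 and 2 in 33, 28 and 25 of the 47 genes, or 70.2%, 59.6% and 53.2%, beside 36.8%, 35.7% and 37.2% of all genes. The 2 directions differed. Of the 21 genes higher in numbers 1 and 2, 9, 18, 14 and 21 were nearer to them without drug and 12, 8 and 8 after 24 h. Of the 26 lower genes, 19, 19, 17 and 22 were nearer to them without drug and 21, 20 and 17 after 24 h. On all 7 resistant arrays 19 of the 47 genes were nearer to numbers 1 and 2, and 0 were nearer to numbers 3 to 5 on all 7. The same was not counted over all autosomal genes, so nothing is read from these 2 counts. The lines were measured once each and come from successive steps of 1 escalation, so these shares carry no test.

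Some of the 47 genes are given with their values in the resistant lines. Igkv5-43 lay between 6.53 and 7.504 on the 7 resistant arrays, below the lowest value of numbers 3 to 5, which was 8.20. Prg3 lay between 7.59 and 8.86 and Igkv4-91 between 9.04 and 10.88, also below the lowest values of numbers 3 to 5, which were 9.17 and 10.92. Igkv4-91 was nearer to numbers 1 and 2 on 4 of the 7 arrays and stood above their highest value, 9.58, on 5. Igkv4-55 was nearer to them on 6, and Igkv5-43 and Prg3 on all 7. Ms4a1 did not place the lines on one side. It stood at 7.71 in R100, 10.14 in R500, 9.49 in R1000 and 10.49 in R4000 without drug, and at 10.75, 10.03 and 8.19 in R500, R1000 and R4000 after 24 h of drug. Every one of these lay below the lowest array of numbers 1 and 2, at 11.33, and 4 of the 7 lay within the range of numbers 3 to 5.

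The change with mafosfamide was compared between the sets. This is another contrast than the one of the grouping, but it rests on the same arrays, whose values had been seen when the sets were proposed, so its p-values are not free of that choice. For each gene the change from 0 h in numbers 3 to 5 was subtracted from the change in numbers 1 and 2, and limma's moderated test with Benjamini-Hochberg adjustment over all genes was applied. The changes differed at adjusted p under 0.05 in 8 autosomal genes at 6 h, 8 at 12 h, 303 at 24 h and 66 at 48 h, which are 0.0419%, 0.0419%, 1.59% and 0.345% of those tested. None of the 47 genes that set the cultures apart was among them. The 47 were chosen for a gap that held over all hours, and at most 1.59% of all genes were called, so nothing is read from this. At 6 and 12 h numbers 1 and 2 had a single array, which was taken to vary like the others. Arrays of the same culture number were taken as independent of each other. The 4 contrasts share the 0 h arrays, so their calls are not independent of each other. At 24 h the change was higher in numbers 1 and 2 for 190 genes and lower for 113. For 171 of the 190 the 0 h level was lower in numbers 1 and 2, as in 52.1% of all autosomal genes, and for 110 of the 113 it was higher, as in 47.9%. The 0 h level enters the difference with a minus sign, so called genes must lean this way. The gap between the sets was larger at 24 h in 175 of the 303 genes and at 0 h in 128. With each array centred on its median the split turned, to 171 higher and 277 lower.

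The counts at 24 and 48 h changed with a covariate and with single arrays. With the fibroblast list mean as a covariate 5 genes remained at 24 h (Nr4a1, Chac1, Dusp16, Lncpint and Ifi206) and 4 at 48 h (Nr4a1, Dusp16, Lncpint and Amigo2), while 8 were called at 6 h and 8 at 12 h. Over the 303 genes the covariate moved the median size of the difference from 0.89 to 0.64 and its median SE from 0.187 to 0.217, and all 303 kept their direction. Leaving out 1 array moved the 24 h count to between 17, without number 1 at 24 h, and 2002, without number 4 at 0 h. Without number 1 at 0 h it was 26, without number 2 at 0 h 827 and without number 4 at 12 h 190. Without number 2, 3, 4 or 5 at 24 h it was 523, 75, 521 or 74. Fitted on the arrays of 0 h and the hour alone, the tests called 0 genes at 6 h, 0 at 12 h, 2 at 24 h and 3 at 48 h. In the fit to all hours 2261, 2264, 3739 and 2678 genes had an unadjusted p under 0.05.

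Nr4a1, an orphan nuclear receptor that antigen receptor signals induce within the hour, showed the change most plainly. At 0 h it stood at 9.16 and 9.51 in numbers 1 and 2 and at 11.34, 11.14 and 11.17 in numbers 3, 4 and 5. At all later hours both sets lay between 9.24 and 9.67. The level in numbers 3 to 5 thus fell by 1.69 by 6 h, while the change in numbers 1 and 2 was -0.10, and the difference in change was 1.59 (SE 0.17, limma adjusted p = 7.81e-04). At 24 h the difference was 1.81 (SE 0.15, limma adjusted p = 1.63e-05) and at 48 h 1.84 (SE 0.15, limma adjusted p = 1.20e-05). With the fibroblast list mean as a covariate it was 1.63 at 24 h (limma adjusted p = 4.79e-03). The array of numbers 1 and 2 at 6 h was 1 culture.

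The genes Dusp16, Klf11 and Mnt were also called at all 4 hours with the same course, high in the 0 h arrays of numbers 3 to 5 and level in numbers 1 and 2. Dusp16, a phosphatase that switches off stress kinases, stood at 10.38 at 0 h in the mean of numbers 3 to 5 and at 9.02 in numbers 1 and 2, and at 9.02 and 9.04 at 24 h. Its difference in change at 24 h was 1.38 (SE 0.16, limma adjusted p = 7.97e-04). Klf11, a zinc finger repressor, differed by 0.81 at 24 h and Mnt, which competes with Myc for its partner Max, by 0.61. Chac1, an enzyme that breaks down glutathione and is induced by amino acid and endoplasmic reticulum stress, was called at 6, 12 and 24 h, with 9.69 to 9.77 in the 3 arrays of numbers 3 to 5 at 0 h against 8.15 and 8.33 in numbers 1 and 2. In numbers 3 to 5 it stood at 8.27 in the mean at 24 h and again at 9.32 at 48 h, where numbers 1 and 2 stood at 8.38.

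Immediate early genes, which cells switch on within minutes of a stimulus from factors already present, stood lower in numbers 1 and 2 at 0 h. Of 27 such genes 23 were lower in numbers 1 and 2 at 0 h, with a median gap of -0.55 beside -0.01 over all autosomal genes. At 24 h 8 of the 27 had a higher change in numbers 1 and 2, and 0 had a lower one, where 1.59% of all genes were called. The 8 were Fosb, Jun, Jund, Nr4a1, Nr4a2, Nr4a3, Klf4 and Rgs1. Fosb, a partner of Jun in the AP-1 factor, stood at 9.20, 10.47 and 9.81 in numbers 3, 4 and 5 at 0 h and at 7.68 and 7.87 in numbers 1 and 2, with 7.59 to 8.36 on all later arrays. Its difference in change was 2.00 at 24 h (SE 0.32, limma adjusted p = 7.34e-03). Jun rose by 1.36 in numbers 1 and 2 and changed by -0.78 in numbers 3 to 5, a difference of 2.14 (SE 0.49, limma adjusted p = 0.0357). The list mean at 0 h was 8.36 and 8.45 in numbers 1 and 2 and between 8.82 and 9.28 in numbers 3 to 5. The fibroblast list mean was 7.77 and 7.83 in numbers 1 and 2 and between 7.76 and 8.31 in numbers 3 to 5 at 0 h, and with it as a covariate Nr4a1 alone of the 8 was called at 24 h.

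The promoters of the Nr4a genes and of Fosb are shown because all 4 genes were called at 24 h. The 250 bases before the gene start, 5′ to 3′ on the gene strand, come from RefSeq on GRCm38.p6, and capitals mark TGACG or its reverse complement CGTCA, the core of the cAMP response element. Nr4a1 lies at chr15:101266596-101266845 on the plus strand, Nr4a2 at chr2:57124004-57124253 on the minus strand, Nr4a3 at chr4:48045055-48045304 on the plus strand and Fosb at chr7:19310046-19310295 on the minus strand.
Nr4a1: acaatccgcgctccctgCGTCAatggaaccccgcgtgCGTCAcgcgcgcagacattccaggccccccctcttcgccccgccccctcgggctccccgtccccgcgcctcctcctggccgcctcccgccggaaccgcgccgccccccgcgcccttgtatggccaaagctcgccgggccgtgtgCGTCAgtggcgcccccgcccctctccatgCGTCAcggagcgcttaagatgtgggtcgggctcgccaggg
Nr4a2: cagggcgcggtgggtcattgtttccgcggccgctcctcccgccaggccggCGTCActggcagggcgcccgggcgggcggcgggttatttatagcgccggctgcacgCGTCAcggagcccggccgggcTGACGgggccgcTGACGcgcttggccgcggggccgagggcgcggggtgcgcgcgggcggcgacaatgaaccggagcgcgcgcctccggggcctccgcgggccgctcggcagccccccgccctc
Nr4a3: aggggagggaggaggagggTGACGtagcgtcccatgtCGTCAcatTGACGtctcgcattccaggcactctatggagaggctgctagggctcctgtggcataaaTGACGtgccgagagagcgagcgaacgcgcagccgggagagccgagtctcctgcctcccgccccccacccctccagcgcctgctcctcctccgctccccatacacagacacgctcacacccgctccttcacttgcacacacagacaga
Fosb: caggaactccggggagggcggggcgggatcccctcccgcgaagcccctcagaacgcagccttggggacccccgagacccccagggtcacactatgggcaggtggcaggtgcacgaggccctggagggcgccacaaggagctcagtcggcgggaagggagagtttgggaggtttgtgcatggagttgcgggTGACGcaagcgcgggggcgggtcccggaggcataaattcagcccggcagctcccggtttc

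Each of the 3 Nr4a promoters held 4 matches to this 5-base motif and the Fosb promoter held 1. Among 32851 promoters of the same length in the table, 17.8% held at least 1 match on either strand and 0.688% held 3 or more. Of the 8 immediate early genes called at 24 h, 7 had a promoter in the table and 5 of the 7 held the motif, with Jun and Jund without it. A match is a run of letters in this window and not a measured binding site.

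Cell division genes ran opposite to the immediate early genes at 0 h. Of 35 genes of G2 and mitosis 34 were higher in numbers 1 and 2 at 0 h, where 47.9% of all autosomal genes were, with a median gap of 0.35, and at 24 h 10 of the 35 were. At 24 h 8 had a lower change in numbers 1 and 2 and 0 a higher one, where 0.591% and 0.995% of all autosomal genes did. The 8 were Cdc25c, Plk1, Aurka, Bub1b, Ttk, Kif2c, Cenpf and Tpx2. Aurka, the kinase that builds the spindle poles, stood at 11.56 and 11.41 in numbers 1 and 2 at 0 h and at 10.91, 11.19 and 10.71 in numbers 3, 4 and 5. It rose by 0.68 to 24 h in numbers 3 to 5 and changed by -0.09 in numbers 1 and 2, a difference of -0.77 (SE 0.16, limma adjusted p = 0.0223). With the fibroblast list mean as a covariate the difference was -0.86 (limma adjusted p = 0.282). The mean of the list at 0 h was 11.76 and 11.81 in numbers 1 and 2 and between 11.34 and 11.61 in numbers 3 to 5. The 39 genes of G1 and S phase had a median gap of 0.05 at 0 h, and 1 of them, Slbp, was called at 24 h, where 1.59% of all autosomal genes were. Other lists leaned at 0 h as well. Of 38 ribosome biogenesis genes 30 and of 31 proteasome genes 23 were higher in numbers 1 and 2, and of 28 myeloid genes 22 were lower. The 0 h arrays of numbers 3 and 5 had interquartile ranges of 3.36 and 3.07, against 3.57, 3.44 and 3.58 for numbers 1, 2 and 4. The part of this spread in the 0 h gaps was not tested.

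In the interferon-inducible Ifi200 family on chromosome 1, 3 of 9 measured members (Ifi206, Ifi213 and Ifi214) had a lower change in numbers 1 and 2 at 24 h, where 0.591% of all autosomal genes did. Ifi206 stood at 6.72 to 7.11 at 0 h on all 5 arrays of both sets. In numbers 3 to 5 its mean was 7.94 after 6 h of drug, 8.0 after 12 h, 8.45 after 24 h and 7.98 after 48 h, and in numbers 1 and 2 the means at these hours lay between 6.85 and 6.97. The difference in change at 24 h was -1.53 (SE 0.17, limma adjusted p = 5.92e-04), and it was -1.38 with the fibroblast list mean as a covariate (limma adjusted p = 0.0485). Ifi213 had a difference of -1.39 and Ifi214 of -1.31 at 24 h. Ifi208 at -2.11 did not pass (limma adjusted p = 0.0739), nor did Ifi202b, Ifi203, Ifi205 and Ifi209, which lay between -0.39 and 0.48. Ifi207 went the other way, with a rise of 2.02 to 48 h in numbers 1 and 2 against -0.53 in numbers 3 to 5 (limma adjusted p = 0.0464). At any hour 4 of the 9 were called, where 1.65% of all autosomal genes were. Members of this family are close copies, so their probes may share signal. Aim2, which was lower in numbers 1 and 2 at every hour, lies in the same gene cluster. In a list of 36 interferon-stimulated genes, 2 were called at 24 h, Trim30a and Parp14, both with a lower change in numbers 1 and 2, where 0.591% of all autosomal genes had one. The level of this list was not lower in numbers 1 and 2. At 0 h 29 of the 36 were higher there, where 47.9% of all autosomal genes were, with a median gap of 0.26. With the hour as a covariate 31 of the 36 were above 0, where 53.4% of all autosomal genes were, with a median difference of 0.13.

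**Figure D4:**
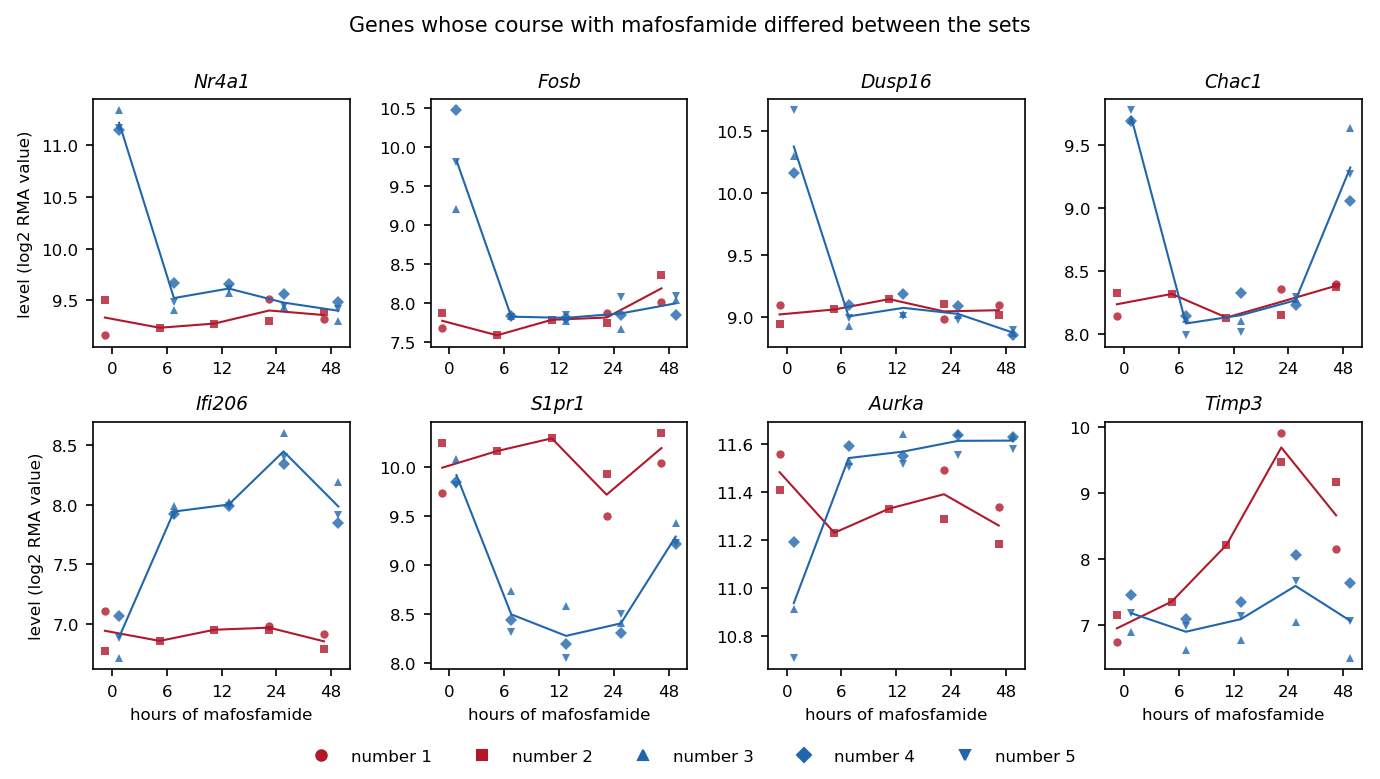
Level of 8 genes (log2 RMA value, vertical axes, each panel on its own scale) on the 23 parental arrays by hours of mafosfamide, with numbers 1 and 2 in red, numbers 3 to 5 in blue and lines through set means. Nr4a1, Fosb, Dusp16 and Chac1 are high in numbers 3 to 5 at 0 h, Ifi206 rises from 6 h and S1pr1 falls in numbers 3 to 5, Aurka is low in numbers 3 to 5 at 0 h, and Timp3 is high in numbers 1 and 2 at 24 h.

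S1pr1, the receptor through which lymphocytes leave tissues, was level at 0 h and parted with drug. It stood at 9.73 and 10.25 in numbers 1 and 2 and at 9.81 to 10.08 in numbers 3 to 5 at 0 h. At 12 h the single array of numbers 1 and 2 stood at 10.29 and the arrays of numbers 3 to 5 at 8.05 to 8.58, and the difference in change was 1.94 (SE 0.29, limma adjusted p = 8.78e-03). At 24 h it was 1.24 (SE 0.25, limma adjusted p = 0.0231), and at 48 h 0.83 (limma adjusted p = 0.143). Lncpint, a long noncoding RNA that p53 induces, was named after its values were seen. It stood at 7.29 and 8.55 at 0 h in the means of numbers 1 and 2 and numbers 3 to 5 and at 8.25 and 7.67 at 48 h, a difference in change of 1.85 (SE 0.19, limma adjusted p = 1.57e-04). Of the 32 p53 target genes in a list, 1 was called at 24 h, Trp53inp2, where 1.59% of all autosomal genes were.

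The fibroblast list stood higher in numbers 1 and 2 at 24 and 48 h. The mean of the 40 genes was 9.58 and 9.16 in numbers 1 and 2 at 24 h and 7.99, 8.82 and 8.58 in numbers 3, 4 and 5. At 48 h the means were 8.72 and 8.91 against 7.65, 8.16 and 8.06. No array of numbers 3 to 5 reached numbers 1 and 2 at either hour. Of the 40 genes 6 had a higher change in numbers 1 and 2 at 24 h and 0 a lower one, where 0.995% and 0.591% of all autosomal genes did, with a median difference of 1.02 beside -0.03 over all autosomal genes. Timp3, an inhibitor of matrix proteases, rose by 2.73 in numbers 1 and 2 and by 0.41 in numbers 3 to 5 (difference 2.32, SE 0.48, limma adjusted p = 0.0231). Fn1, which encodes fibronectin, had a difference of 3.08 at 48 h (SE 0.64, limma adjusted p = 0.0464). Fn1 was the only 1 of the 40 genes called at 48 h, where 0.345% of all autosomal genes were. Penk at 3.11 and Fads2 at 1.71, which are not in the list, were also called at 48 h. Col1a1, which is in the list, was called at 24 h at 1.00. The part of the feeder layer in these differences was not tested.

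**Figure D5:**
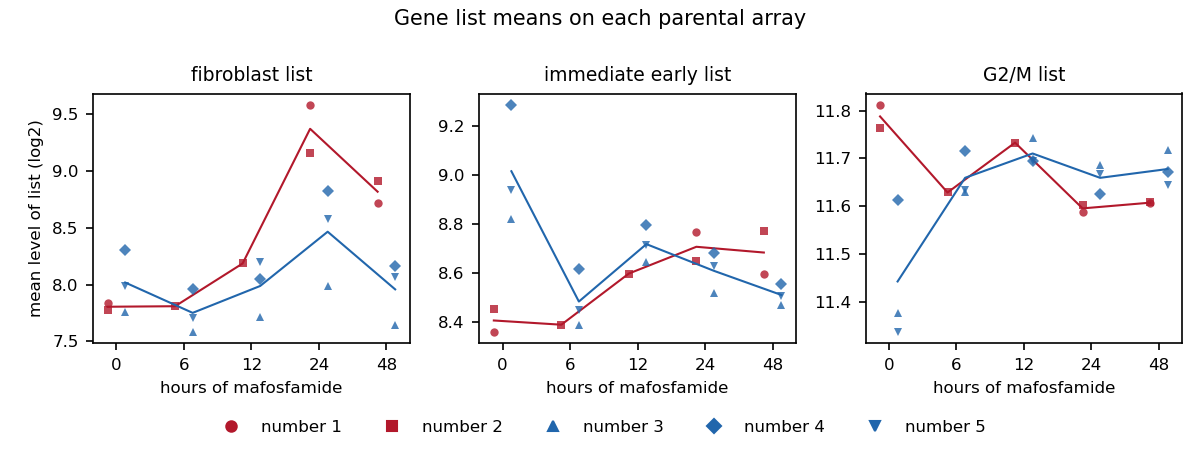
Mean level (log2) of the fibroblast list (40 genes), the immediate early list (27 genes) and the G2/M list (35 genes) on each of the 23 parental arrays by hours of mafosfamide, with numbers 1 and 2 in red, numbers 3 to 5 in blue and lines through set means. The fibroblast mean is higher in numbers 1 and 2 at 24 and 48 h, and at 0 h numbers 3 to 5 have the higher immediate early mean and the lower G2/M mean.

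Taking the sets into account changed how many genes were called for mafosfamide itself. When each hour was compared with 0 h across all 23 arrays, with the set as a term, 22, 243, 2421 and 212 autosomal genes (0.115%, 1.27%, 12.7% and 1.11%) had a limma adjusted p under 0.05 at 6, 12, 24 and 48 h. Without the term the counts were 4, 99, 1297 and 48, and all of these genes were also called with it. The sets were proposed after these values had been seen, so a higher count with the term is no evidence for them. Of the 2421 genes at 24 h 1464 were higher and 957 lower than at 0 h. In a separate count, the change in each set alone gave 1163 genes at 24 h in numbers 1 and 2, with 2 arrays an hour, and 1958 in numbers 3 to 5, with 3 arrays. These counts rest on unequal numbers of arrays and are not compared.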

How the data were processed

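Expression was measured on Affymetrix Mouse Gene ST arrays, 1 for each culture number and hour. Per the labels, the authors made the deposited log2 values with RMA from the affy package (mm9 annotation), and they were used without further scaling. No read depth applies, and precision is set by how many arrays each group has. Of 34760 probe sets, 21640 had 1 gene symbol in the platform annotation. For the 954 genes with several probe sets the brightest was used, which left 19937 genes, 19105 of them autosomal.

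The set difference came from a linear model with hour and set (numbers 1 and 2 minus 3 to 5) and was described only. Differences in change came from means of each set and hour, tested with limma 3.58.1 in R 4.3.3 (lmFit, eBayes) with Benjamini-Hochberg adjustment over 19937 genes at 0.05. The test was tried on simulated data. Counts cover autosomal genes, since X-linked genes (739) and 93 others were left out.

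Members and gene lists were chosen with earlier results of these data known. Genes named were the 12 largest set differences in each direction without overlap, the 5 largest called differences in change in each direction at 24 and 48 h and the 3 largest at 6 and 12 h. They also included up to 3 members of each list by set difference, up to 2 by p at 24 h, and Myc, Cdkn2a, Cd79a, Zmat3, Cd80, Col1a1, Col3a1 and Acta2. A further item of this rule is not reported here. Other genes were named after their values were seen, where they completed a group.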

Additional observations from a re-analysis of the deposited data

Results flagged for a closer look

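Among 83 values tested over the 8 arrays of numbers 1 and 2, 3 had an array far from the rest by Dixon's test, which chance marks in about 1 of 20 groups. The array was number 1 at 0 h each time. After adjustment for hour, Prg3 stood at 8.18 there against 7.31 to 7.71 on the others, Spinkl at 7.24 against 6.19 to 6.68, and the mean of the NF-kB list at 8.604 against 8.78 to 8.84.

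The genes with the largest called differences in change between the sets follow, with the limma adjusted p of each. At 24 h Timp3 (2.32, 0.0231), Jun (2.14, 0.0357), Fosb (2.00, 0.00734), Fads2 (1.89, 0.013) and Pcolce (1.87, 0.0419) had the higher change in numbers 1 and 2. Ifi206 (-1.53, 0.000592), Slfn8 (-1.49, 0.0408), Zfp322a (-1.49, 0.0494), Ifi213 (-1.39, 0.0083) and Ifi214 (-1.31, 0.0322) had the lower change. At 48 h Penk (3.11, 0.0405), Fn1 (3.08, 0.0464), Ifi207 (2.54, 0.0464), Fosb (2.25, 0.0059) and Ephx1 (1.94, 0.0275) were higher. Tespa1 (-1.28, 0.0405), Ifi206 (-1.18, 0.0059), Rhbdf2 (-1.06, 0.0399), Trim21 (-0.91, 0.0275) and Aurka (-0.90, 0.0219) were lower. With the fibroblast list mean as a covariate, Ifi206 at 24 h was the only one of these still called.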

How the results depend on the processing

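The 47 genes of the set difference became 46 to 53 when 1 array was left out and 48 to 62 when 1 culture number was left out. They were 169 at 1.5-fold and 11 with the numbers of the titles. With the fibroblast list mean as a covariate they were 70 at 2-fold. With this covariate and 1.5-fold they were 262, a setting chosen after seeing the data. The differences in change were less stable, and the cause was not tested. At 6, 12, 24 and 48 h, where 8, 8, 303 and 66 genes were called, leaving out 1 array gave 5 to 196, 3 to 171, 17 to 2002 and 5 to 843 genes. The highest count was without number 4 at 0 h at each hour. For these differences in change, leaving out 1 culture number was chosen after seeing the data. It gave 1 to 952 genes at 24 h and 3 to 148 at 48 h. Median centring gave 3 genes at 6 h and 39 at 48 h, and centring on housekeeping genes 13 at 12 h, 485 at 24 h and 159 at 48 h. Without number 5 at 0 h there were 5 at 6 h and 29 at 48 h. Array weights gave 688, 1986, 1576 and 929 genes, in a fit that did not converge. Arrays of 0 h and the hour alone gave 0, 0, 2 and 3. The fibroblast covariate gave 5 at 24 h and 4 at 48 h. The 6 and 12 h differences could not be computed without number 2 at that hour.

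With the replicate block there were 2000 genes at 24 h and 927 at 48 h. The main fit did not pair cultures by number, although arrays of one number were alike. Deviations of same-numbered arrays correlated at 0.06 to 0.77 with a median of 0.40, beside a median of -0.12 for other pairs. Of 23 arrays, 19 correlated best with their own number. The p-values of the main fit leave this likeness out.

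For mafosfamide against 0 h with the set as a term (22, 243, 2421 and 212 genes), there were 4, 99, 1297 and 48 without the term. The replicate block in its place gave 61, 687, 4557 and 636. Leaving out 1 array gave 5 to 99, 84 to 522, 1477 to 4298 and 75 to 682. Median centring gave 136 at 12 h. At 24 h it turned the split from 1464 higher and 957 lower to 1209 and 1897. Without number 5 at 0 h there were 112 at 12 h, 1590 at 24 h and 137 at 48 h. For named genes, counted once for each gene and setting, no value changed direction. The differences in change were still called in 659 cases and no longer called in 292, and the set difference moved by more than its spread in 22 cases and did not in 980.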
